A study of Caenorhabditis elegans with 36 samples.

Results

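The cuticle collagen genes of Caenorhabditis elegans were followed through the small RNA libraries of young adults and embryos. The set held every gene whose WormBase symbol starts with col-, together with the collagen genes named for body shape mutants: dpy-2, dpy-3, dpy-4, dpy-5, dpy-7, dpy-8, dpy-9, dpy-10, dpy-13, dpy-14, dpy-17, rol-6, sqt-1, sqt-2, sqt-3, bli-1 and bli-2. It came to 145 of 31003 genes in the adult table and 173 of 46739 genes in the embryo tables, and dpy-3 and dpy-8 were listed only in the embryo tables. Among the col- symbols, col-99 encodes a transmembrane collagen and not a secreted cuticle protein.

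The series examined candidate genes of transgenerational silencing, and 16 of its 36 samples were small RNA libraries with counts per gene. The adult libraries came from whole animals of wt (2 libraries, numbered 1 and 3), nip2nip3 (3 libraries) and nip3_qe17 (3 libraries), the last being nip3 with the allele qe17. The labels name the nip2nip3 mutant by its genes only. The embryo libraries came from wt and from the mutant that the labels call nipnip2, with 2 input libraries and 2 immunoprecipitates each. The immunoprecipitates (IP) were made with the anti-FLAG M2 antibody against FLAG-tagged NRDE-3, an Argonaute protein that carries small interfering RNAs into the nucleus of somatic cells. The tag is therefore shared by wt and nipnip2 in the IP comparison, and 3 of the 4 inputs also carry it in their labels, while a wt input is labelled whole animal with no tag. Embryos were early and of mixed stage. The embryo count columns were assigned to wt or nipnip2 and to material, but not to a numbered sample, so they are called libraries 1 and 2 here. The mutant columns are headed nip1nip1_1 and nip1nip2_2, names that differ from each other and from the label. Both were taken as nipnip2, and every nipnip2 result rests on that. Nothing in the labels says that libraries came from separate cultures, so every p-value measures the spread between these libraries, which may be technical.

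The worm cuticle is an extracellular matrix that the hypodermis secretes anew at each molt, and collagens are its main proteins. Each cuticle collagen gene encodes a short protein with interrupted triple-helix repeats, and different genes are switched on in successive waves within a molt. Some collagens form the annular furrows, others the layer beneath or the struts that join the adult layers, and loss of single genes makes animals short (Dpy), twisted (Rol), both (Sqt) or blistered (Bli). Many worm transcripts are also copied into antisense small interfering RNAs, and the libraries here used a cloning method that does not depend on the 5′ end, which admits such RNAs. The strand setting of the counting is not given in the sources used here, so the counts below are small RNA reads over a gene, sense or antisense.

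The adult libraries held 6362077 to 10962202 counts over genes, the embryo inputs 1149366 to 2200655 and the IP libraries 2957435 to 5956980. The microRNA share of all counts was 21.3% to 26.1% in adults, 0.209% to 0.430% in inputs and 0.713% to 0.874% in IP libraries. The list of later stage microRNAs, lin-4, let-7, mir-48, mir-84 and mir-241, summed to 3.24% to 5.56% of microRNA counts in adults. Of the 8 embryo libraries only nipnip2 input 2 held any, at 0.0291%. The adult mutants differed from wt in small RNAs over sperm genes. Small RNAs over the 31 major sperm protein genes summed to 132 and 162 counts per 1000000 counts of a library (CPM) in wt, 442 to 514 in nip2nip3 and 383 to 423 in nip3_qe17, and none of the 31 genes was at 0 in an adult library. All 30 of these genes that were tested were called higher in both mutants, and 27 with microRNA scaling. Of all genes tested, 21.9% were called higher in nip2nip3 and 17.8% in nip3_qe17. The 11 oocyte and eggshell genes summed to 670 and 708 CPM in wt, 596 to 633 in nip2nip3 and 635 to 690 in nip3_qe17. Of the 9 tested, 0 were called higher and 3 lower in nip2nip3, and 1 higher and 2 lower in nip3_qe17. Of all genes tested, 21.3% and 19.1% were called lower. The embryo microRNAs mir-35 to mir-42 were 3.24% and 2.46% of microRNA counts in the wt libraries, against 0.784% to 0.821% in nip2nip3 and 0.796% to 1.07% in nip3_qe17. In embryos they were 2.13% and 2.28% in the wt inputs, below both wt adult libraries, 5.07% and 5.61% in the nipnip2 inputs and 0.0203% to 0.0427% in IP libraries. The part of these differences in the collagen results below was not tested. In whole animals, fewer cells of a type and less small RNA per cell cannot be told apart.

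Collagen genes took a small share of the adult small RNA. They held 0.0824% and 0.0880% of all counts in the wt libraries, with a mean of 0.0852% ± 0.00400 (SD, n = 2). The share was 0.108%, 0.129% and 0.134% in nip2nip3, and 0.0878%, 0.121% and 0.122% in nip3_qe17. The nip2nip3 libraries all lay above both wt libraries, and the lowest nip3_qe17 library lay just under the higher wt library. Exact two-sided permutation tests gave p = 0.2 for nip2nip3 and p = 0.3 for nip3_qe17, where the smallest p that these group sizes allow is 0.1. Most of the rise lay in col-71 and col-111. Without them the shares were 0.0416% ± 0.000934 (SD, n = 2) in wt, 0.0444% ± 0.00189 (SD, n = 3) in nip2nip3 and 0.0371% ± 0.00485 (SD, n = 3) in nip3_qe17.

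**Figure D1:**
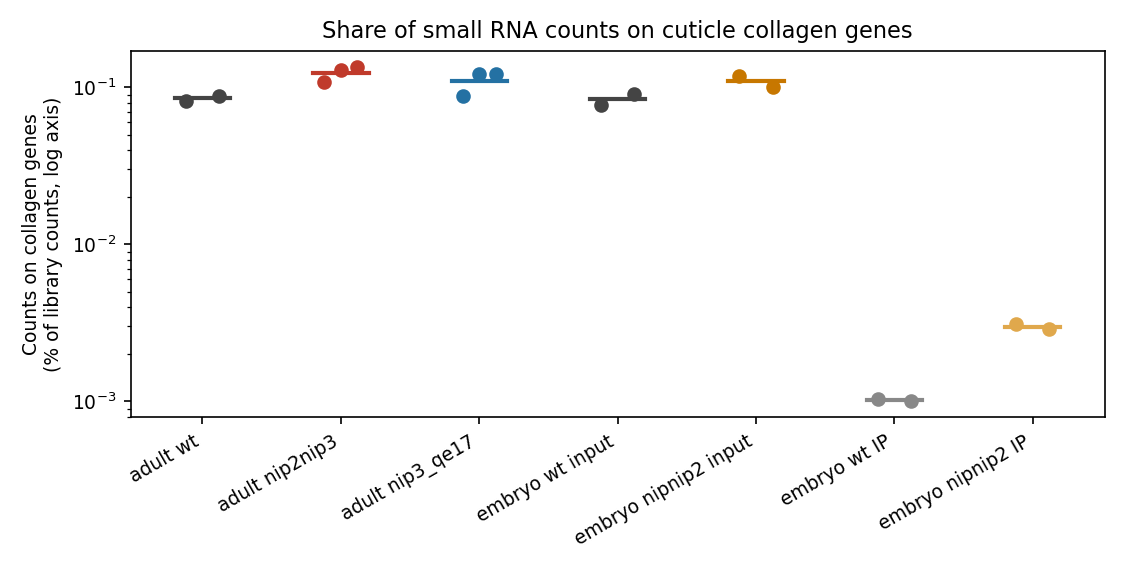
Share of all gene counts over collagen genes (percent, log axis) in each small RNA library, by stage, material and genotype; points are libraries and bars group means. Adult and input libraries sit between 0.0772% and 0.134%, and the IP libraries between 0.00101% and 0.00311%.

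The counts were concentrated in few genes. In adult libraries, the 5 highest collagen genes of each library held 78.2% to 88.8% of all collagen counts, and col-71 alone held 40.1% and 42% of them in wt. Its share was 32.2% to 32.9% in nip2nip3 and 31.5% to 36.2% in nip3_qe17. Divided by gene length, as CPM per kilobase of gene span, col-71 was also the highest in wt adults, at 121, followed by col-45 at 62.8, col-157 at 58.0, col-111 at 33.9, col-38 at 19.5 and col-60 at 15.8. The body shape gene with the most CPM per kilobase among those tested, dpy-17, stood at 1.86 in wt.

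Few of the genes with a known mutant form had enough counts for a test. A gene entered the adult tests when edgeR's filterByExpr kept it, which 34 of the 145 collagen genes did (23.4%, against 53.5% of all genes in the table). None of the 145 was at 0 in every adult library. The adult table listed fewer collagen genes than the embryo tables, with 173, so genes at 0 may have been left out of it. Among the 15 body shape genes in the table, the 4 tested were dpy-17, dpy-9, dpy-10 and sqt-3. The furrow collagens dpy-2 and dpy-7, the strut collagens bli-1 and bli-2, and rol-6, dpy-5, sqt-2, sqt-1, dpy-4, dpy-14 and dpy-13 were not tested, with at most 12.3 counts in any adult library. The gene for the adult collagen col-19, which is used as a marker of the adult hypodermis, held 0.11 to 4.03 counts in the adult libraries. The 34 genes comprised 4 of 19 on chromosome I, 6 of 28 on II, 3 of 13 on III, 11 of 39 on IV, 9 of 28 on V and 1 of 18 on X.

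Against wt, the nip2nip3 adults had 10 collagen genes with more small RNA and 3 with less among the 34 tested, at an adjusted p under 0.05. Of all 16585 genes tested, 21.9% were called higher and 21.3% lower, so both directions were common in the table. The collagen genes called higher were dpy-17, col-158, dpy-9, col-111, col-38, col-103, col-129, col-124, col-71 and col-157, and those called lower were col-186, col-46 and col-47. The median log2 fold change was 0.23 over the 34 collagen genes and 0.05 over all genes tested. The nip2nip3 libraries lay wholly above wt for 13 collagen genes and wholly below for 6, and over all genes tested these outcomes took 34% and 32.6%. Scaling by microRNA counts, which set the median of all genes to -0.53, gave 6 collagen genes higher and 8 lower. Under that scaling 9060 of all genes tested were called in either direction. Without wt replicate 3 there were 6 higher among 41 tested, and with a minimum mean of 20 counts 6 among 16 tested. With the minimum mean of 20 counts, 6059 of all genes tested were called in either direction. All folds and p-values that follow come from edgeR's quasi-likelihood test with Benjamini-Hochberg adjustment over all genes of the table, and a fold is given with its standard error. CPM values are scaled with edgeR's TMM factors.

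Among body shape genes, dpy-17 had the largest rise. It encodes a collagen that is needed for normal body length and that acts with the collagen SQT-3 (III:5107330-5108491, ce11, as are all positions here). Its small RNA was 2.56 and 1.76 CPM in wt, and 57.1, 44.2 and 45.8 CPM in nip2nip3. The groups were far apart, with means of 2.16 ± 0.568 (SD, n = 2) and 49.0 ± 7.03 CPM (SD, n = 3). The log2 fold change was 4.50 ± 0.23 (SE) with an adjusted p of 1.94e-07. The adjoining genes moved far less: F54D8.6, 310 bases to its left, had a log2 fold change of 0.27 (adjusted p = 0.0960), and sax-2, 1210 bases to its right, one of 0.51 (adjusted p = 0.0276).

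The furrow collagen gene dpy-9 (IV:257384-259204) rose from a low level. It had 0.641 and 0.704 CPM in wt against 3.85, 4.07 and 6.13 CPM in nip2nip3, and the groups did not overlap. Its log2 fold change was 2.79 ± 0.44 (SE; adjusted p = 0.000617). The adjoining genes R02D3.8 and pqbp-1.1 had log2 fold changes of 0.15 (adjusted p = 0.711) and 0.12 (adjusted p = 0.598). The furrow collagen gene dpy-10, at 28 and 13 counts in wt and 23, 20 and 21 in nip2nip3, and sqt-3, at 15.2 and 7.44 against 14, 3.55 and 10.9, overlapped between the groups and were not called.

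Of the numbered genes, col-111 and col-38 carried the largest rises at a substantial level. For col-111 (IV:4655791-4657974) the wt libraries stood at 73.3 and 74.7 CPM, and the nip2nip3 libraries at 331, 435 and 476 CPM. Its log2 fold change was 2.48 ± 0.17 (SE; adjusted p = 1.80e-06). For col-38 (II:8568035-8569088) the values were 22 and 19 CPM in wt against 76.3, 98.8 and 104 CPM. That was a log2 fold change of 2.18 ± 0.15 (SE; adjusted p = 1.54e-06). In both genes every mutant library stood at more than the highest wt library.

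Both genes have close neighbours. Only col-111 shares bases with such a neighbour, and reads in the shared bases could be credited to either gene. The gene psr-1, named for a phosphatidylserine receptor, overlaps col-111 by 58 bases, and it also rose, by a log2 fold change of 1.30 (adjusted p = 6.79e-05). The flanking genes F29B9.5 and mrps-21 changed by 0.17 and 0.03 on the log2 scale and were not called. Next to col-38, the noncoding RNA gene F54C9.15 begins 53 bases away. Its counts were 1 and 1 in wt against 22, 19 and 32 in nip2nip3, with a log2 fold change of 4.54 (adjusted p = 5.10e-05).

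Low-count genes also rose. For col-103 (IV:762413-763678) the libraries held 1.67 and 2.35 CPM in wt and 8.34, 7.99 and 10.2 CPM in nip2nip3, with no overlap (log2 fold change 2.13 ± 0.27 SE, adjusted p = 0.000130). For col-158 (V:11829582-11831219) there was 1 count in each wt library against 22, 22 and 24 in nip2nip3. The ratio of its shares was 24.2, with a 95% counting interval of 6.46 to 204, and its adjusted p was 0.000676. Intervals of this kind cover counting error only, since reads are not independent molecules. The remaining low genes were col-129, at 0.512 and 0.704 CPM in wt and 2.24, 1.74 and 2.45 CPM in nip2nip3 (adjusted p = 0.0194), and col-124, at 0.897 and 0.587 against 1.60, 1.89 and 2.04 CPM (adjusted p = 0.0301). The gene col-124 lies wholly within qns-1, whose log2 fold change was -0.25 and was not called. The call of col-124 was lost in 8 of 12 other settings and that of col-129 in 4 of 12, while those of col-103 and col-158 held in all that were run.

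The highest collagen gene changed little in comparison. Its levels, for col-71 (II:3500077-3502570), were 287 and 315 CPM in wt and 392, 429 and 470 CPM in nip2nip3. The log2 fold change of 0.52 ± 0.16 (SE) had an adjusted p of 0.0278, and it was -0.07 with microRNA scaling. This call was lost in 6 of 13 other settings, among them library totals and 4 of the 5 fits that left out 1 library, where the adjusted p reached 0.164. A noncoding RNA gene inside its span, Y49F6B.15, rose by 0.86 on the log2 scale (adjusted p = 0.000229). For col-157 (V:11484042-11485039) the 2 groups were close but did not overlap, at 58.7 and 57.1 CPM in wt against 75.2, 73.8 and 77.2 CPM, a log2 fold change of 0.38 ± 0.09 (SE; adjusted p = 0.00709) that became -0.20 with microRNA scaling. Its call was lost in 3 of 13 other settings.

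**Figure D2:**
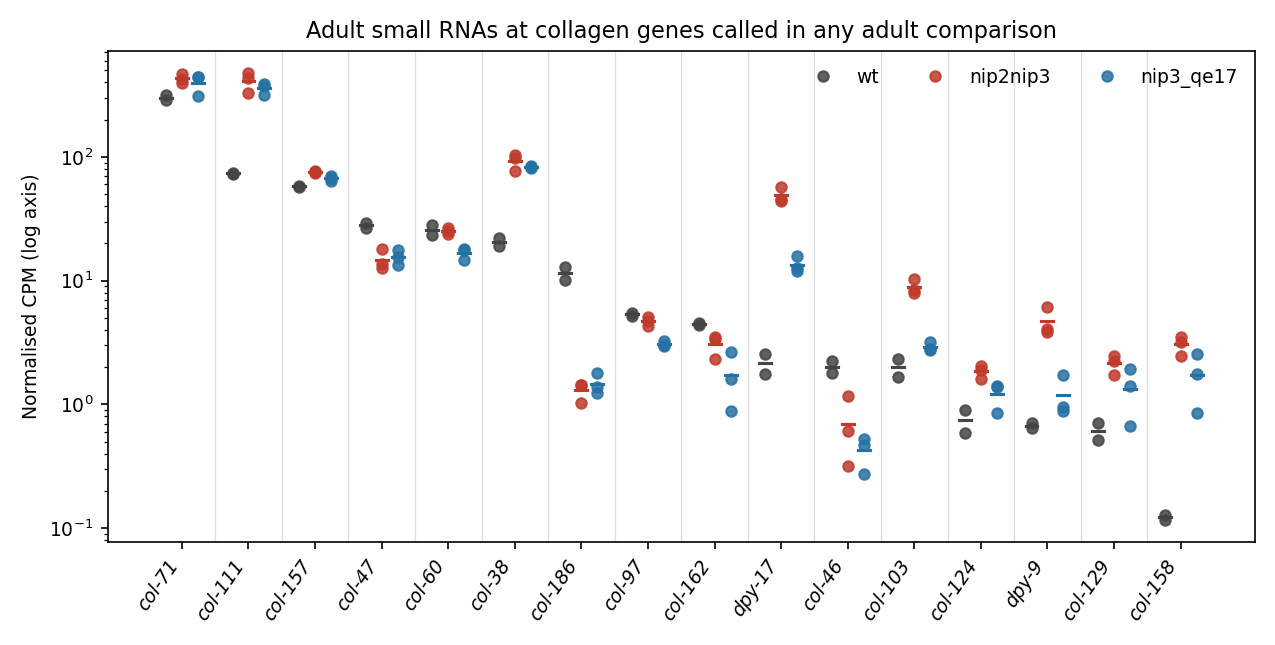
Small RNA level (CPM, log axis) of the collagen genes called in at least 1 adult comparison, with a point for each library and a bar at each group mean. For dpy-17 the wt libraries lie at 2.56 and 1.76 CPM, the nip3_qe17 libraries at 11.9 to 15.8 CPM and the nip2nip3 libraries at 44.2 to 57.1 CPM, while for col-186 both mutants lie under wt.

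The collagen genes with less small RNA in nip2nip3 were led by col-186 (X:15951494-15954789), the one gene of chromosome X that was tested. Its levels were 10.1 and 12.8 CPM in wt and 1.44, 1.02 and 1.43 CPM in nip2nip3. Its log2 fold change was -3.12 ± 0.28 (SE; adjusted p = 1.06e-05), with no overlap between the groups. The other genes that fell, col-47 (I:745888-748288) and col-46 (I:741878-747213), overlap each other by 1326 bases. Their levels in wt were 26.7 and 29.3 CPM for col-47 and 1.79 and 2.23 CPM for col-46. In nip2nip3 they were 18, 12.6 and 13.7 CPM for col-47 (log2 fold change -0.93, adjusted p = 0.00194), and 0.321, 1.16 and 0.611 CPM for col-46 (log2 fold change -1.51, adjusted p = 0.0290). The gene Y18H1A.9 overlaps the other end of col-47 by 79 bases. It held 235 and 268 counts in wt against 115, 90 and 142 in nip2nip3, and col-47 held nearly the same numbers, 208 and 250 against 112, 87 and 134. Its log2 fold change was -1.01 (adjusted p = 0.000929), so the fall of the pair cannot be assigned to col-47 from these counts. The call of col-46 was lost in 5 of 12 other settings.

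In nip3_qe17 adults, 4 of the 34 collagen genes had more small RNA than wt and 6 had less, while 17.8% of all genes tested were called higher and 19.1% lower. The genes called higher were dpy-17, col-111, col-38 and col-158, and those called lower were col-186, col-46, col-162, col-47, col-97 and col-60. The median log2 fold change was 0.14 over the collagen genes and 0.01 over all genes tested. The nip3_qe17 libraries lay wholly above wt for 8 collagen genes and wholly below for 7, against 28.4% and 30.6% of all genes. Scaling by microRNA counts, with the median of all genes at -0.50, gave 4 higher and 11 lower, and leaving out wt replicate 3 gave 2 lower among 41 tested. With microRNA scaling, 8630 of all genes tested were called in either direction. Both adult mutants were compared with the same 2 wt libraries, so the 2 sets of calls are not independent of each other.

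In this mutant dpy-17 stood between the other groups, at 12.6, 11.9 and 15.8 CPM, or 13.4 ± 2.03 CPM (SD, n = 3). Its log2 fold change against wt was 2.64 ± 0.24 (SE; adjusted p = 1.51e-05). For dpy-9 the levels were 0.882, 0.951 and 1.74 CPM, just above both wt libraries, and its log2 fold change of 0.86 ± 0.50 (SE) missed the threshold (adjusted p = 0.210). For dpy-10 and sqt-3 there were 12, 20 and 19, and 6.70, 13.2 and 5.95 counts, and neither was called.

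The levels of col-111 were 319, 391 and 372 CPM, all above wt, a log2 fold change of 2.29 ± 0.17 (SE; adjusted p = 3.37e-06). Its neighbour psr-1 rose by 1.06 on the log2 scale (adjusted p = 0.000302). The levels of col-38 were 82.4, 84.1 and 82.1 CPM, close to each other and far above wt (log2 fold change 2.01 ± 0.15 SE, adjusted p = 3.02e-06). The noncoding RNA gene F54C9.15 next to col-38 had 5, 8 and 9 counts, a log2 fold change of 2.59 (adjusted p = 0.00676). For col-158 there were 10, 9 and 28 counts, a ratio of 14.1 to wt with a 95% counting interval of 3.70 to 120 (adjusted p = 0.00364).

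The genes with less small RNA in nip3_qe17 again included col-186, at 1.23, 1.80 and 1.37 CPM (log2 fold change -2.93 ± 0.27 SE, adjusted p = 1.42e-05). The overlapping genes were at 15.6, 17.5 and 13.3 CPM for col-47 (log2 fold change -0.86, adjusted p = 0.00314) and 0.524, 0.472 and 0.274 CPM for col-46 (log2 fold change -2.26, adjusted p = 0.00588). As in nip2nip3, both lay wholly under wt, and so did Y18H1A.9, by -0.92 on the log2 scale (adjusted p = 0.00165). The further 3 genes had smaller changes. For col-60 (I:7105302-7106926) the wt libraries had 23.2 and 28.3 CPM, and the nip3_qe17 libraries 14.7, 18 and 17.6 CPM (log2 fold change -0.61, adjusted p = 0.00654). For col-97 (III:12992405-12993707) they had 5.51 and 5.16 against 2.98, 3.22 and 3.02 CPM (log2 fold change -0.79, adjusted p = 0.0194). For col-162 (V:13441961-13443419) they had 4.36 and 4.58 against 0.884, 1.61 and 2.66 CPM (log2 fold change -1.29, adjusted p = 0.0206). None of these genes overlapped between the groups. The gene Y2H9A.6, 416 bases from col-162, had 53 and 41 counts in wt against 2, 4 and 2 in nip3_qe17, a log2 fold change of -4.22 (adjusted p = 1.60e-05). Without wt replicate 3 the calls of col-46, col-60, col-97 and col-162 were lost.

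Some genes were called in nip2nip3 alone. In nip3_qe17 the levels of col-71 were 309, 442 and 443 CPM, with library 1 inside the wt range, and its adjusted p was 0.0787. The levels of col-157 were 67.4, 69.9 and 63.8 CPM, all above wt, with an adjusted p of 0.0954. Whether a gene differed between the mutants is given by the direct comparison that follows, not by which mutant passed the threshold.

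**Figure D3:**
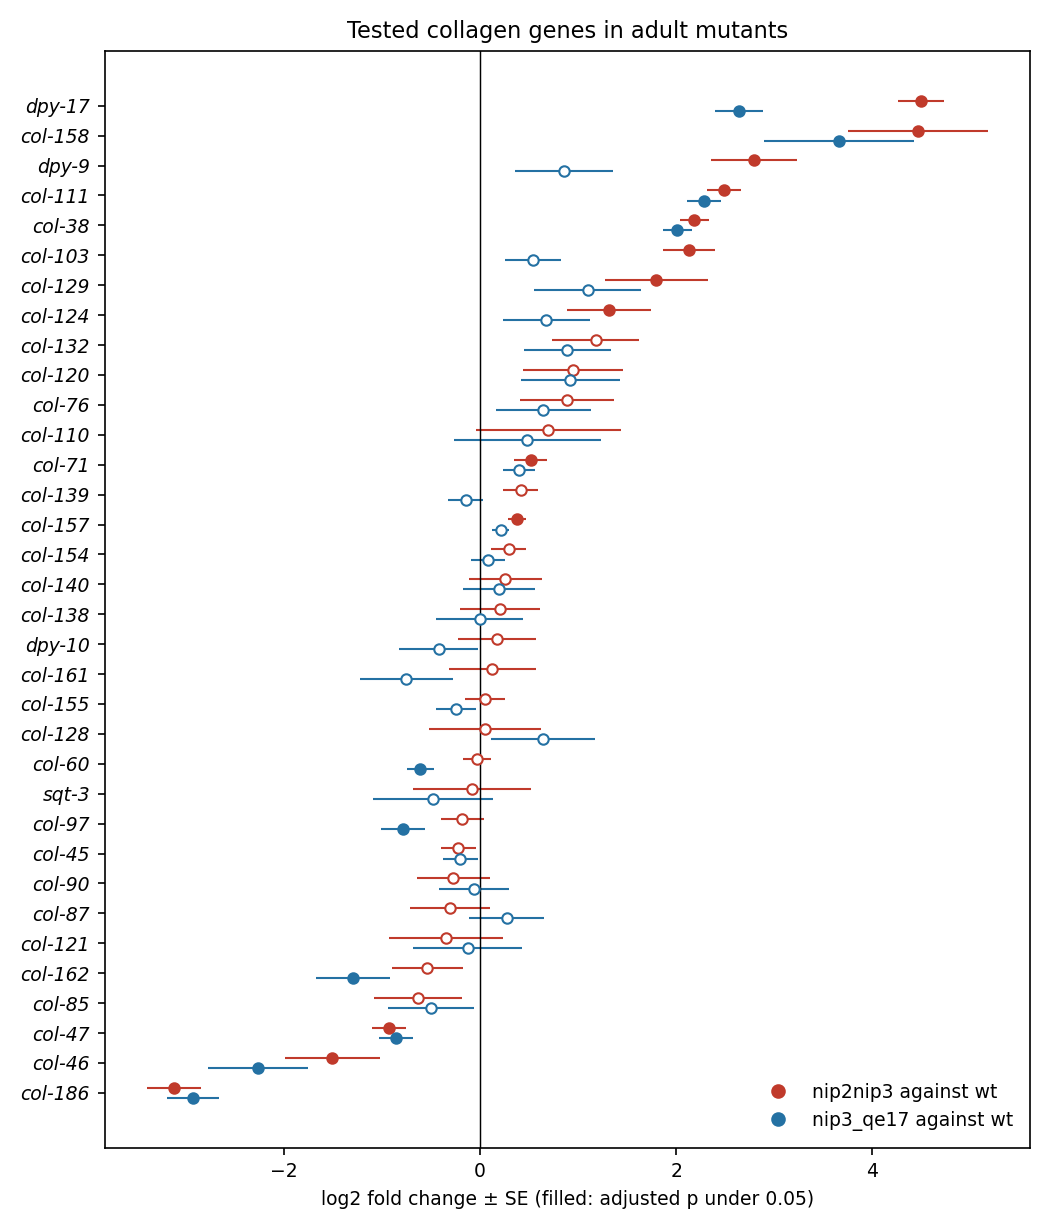
Log2 fold change against wt, with its standard error, of the 34 collagen genes tested in adults, for nip2nip3 and nip3_qe17, sorted by the nip2nip3 value. Filled points have an adjusted p under 0.05; dpy-17 stands at 4.50 and 2.64, and col-186 at -3.12 and -2.93. Both series share the wt libraries.

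Compared directly, nip2nip3 had more small RNA than nip3_qe17 over 4 of the 34 collagen genes and less over 0, by edgeR's test at an adjusted p under 0.05. Over all genes tested, 2.72% were called higher and 1.47% lower. At an unadjusted p under 0.05 there were 6 collagen genes in either direction, against 18.5% of all genes. The largest difference was that of dpy-9, at 1.93 ± 0.34 on the log2 scale (SE; adjusted p = 0.00876). For dpy-17 it was 1.86 ± 0.16 (SE; adjusted p = 5.28e-05), and the lowest nip2nip3 library, at 44.2 CPM, lay far above the highest nip3_qe17 library, at 15.8 CPM. For col-103 it was 1.60 ± 0.22 (SE; adjusted p = 0.00207), with nip3_qe17 at 2.81, 2.75 and 3.21 CPM. For col-60 it was 0.58 ± 0.13 (SE; adjusted p = 0.0301), with nip2nip3 at 25.2, 26.7 and 23.9 CPM, and this call was lost in 9 of 14 other settings.

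Of the genes called higher in both mutants against wt, dpy-17 passed this direct test, while col-111, col-38 and col-158 did not. The difference was 0.20 ± 0.14 (SE) for col-111 (adjusted p = 0.481), 0.17 ± 0.12 for col-38 (adjusted p = 0.480) and 0.80 ± 0.38 for col-158 (adjusted p = 0.300). For col-186 it was -0.20 ± 0.31 (SE; adjusted p = 0.791). For 9 collagen genes every nip2nip3 library was above every nip3_qe17 library and for 1 the reverse held, outcomes that took 12.8% and 11.6% of all genes. The median difference was 0.23 over the collagen genes and 0.02 over all genes tested.

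**Figure D4:**
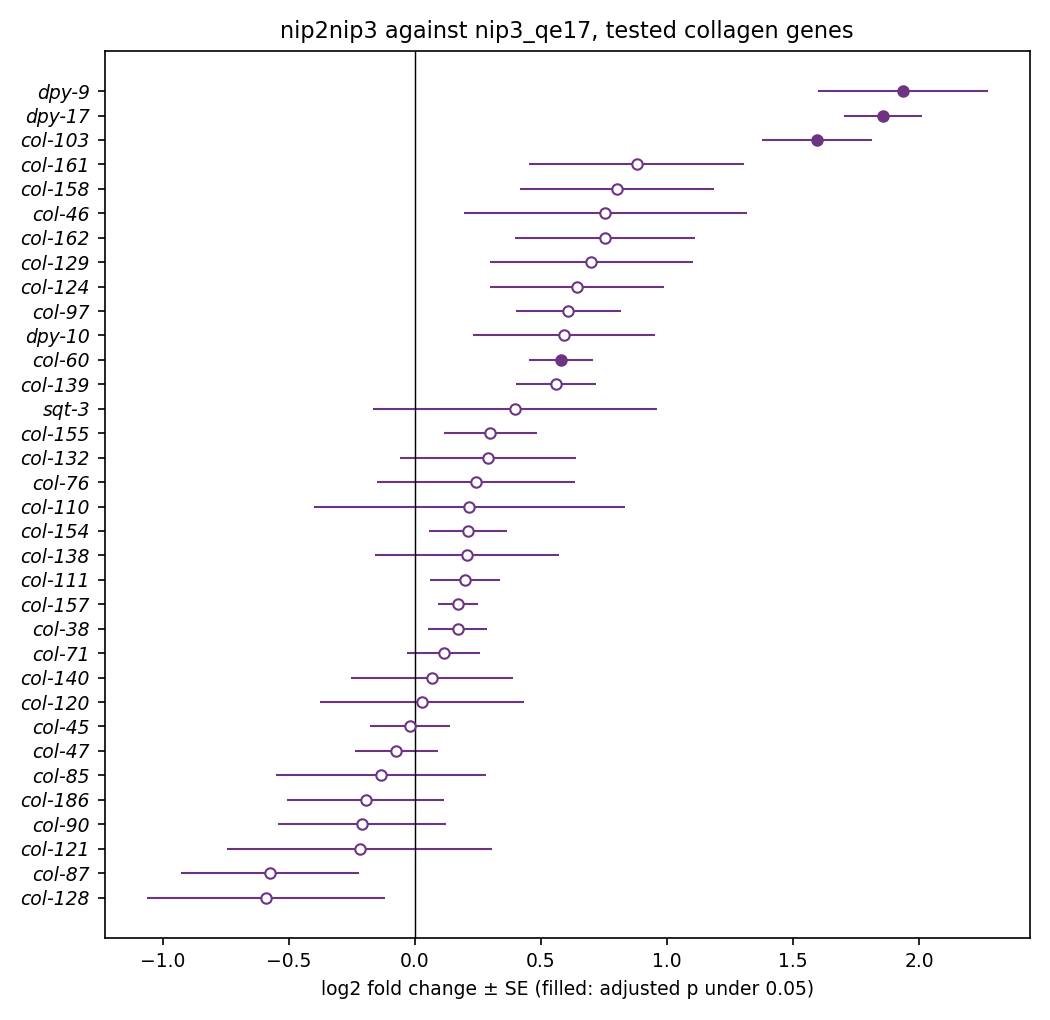
Log2 difference between nip2nip3 and nip3_qe17 adults, with its standard error, for the 34 collagen genes tested; filled points have an adjusted p under 0.05. The called genes are dpy-9 at 1.93, dpy-17 at 1.86, col-103 at 1.60 and col-60 at 0.58.

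Genes that act around the collagens changed in both directions. The same was true of all genes tested, of which 21.9% were higher and 21.3% lower in nip2nip3, and 17.8% and 19.1% in nip3_qe17. Of 9 tested genes for collagen processing and cross-linking, 2 were higher and 4 lower in nip2nip3, and 2 were higher and 1 lower in nip3_qe17. The gene dpy-31, for the astacin protease that trims procollagens such as SQT-3, rose by 1.42 and 1.27 on the log2 scale in nip2nip3 and nip3_qe17, and let-268, for a lysyl hydroxylase, rose by 1.25 and 1.43. The dual oxidase gene bli-3, whose product cross-links cuticle collagens through tyrosines, fell by 3.26 and 2.79. In nip2nip3, bli-4, for a proprotein convertase, dpy-11, for a thioredoxin-like protein, and pdi-3, for a protein disulfide isomerase, fell by 0.52, 0.55 and 0.30.

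Of 9 tested molting and apical matrix genes, 1 was higher and 4 lower in nip2nip3, and 1 was higher and 5 lower in nip3_qe17. The list was set as one of hypodermis genes, but small RNA over them does not measure the amount of that tissue. The molting protease gene nas-36 rose by 2.43 and 1.54 on the log2 scale. The protease inhibitor gene mlt-11 fell by 2.41 and 2.14, acn-1, for a relative of angiotensin-converting enzyme, by 1.98 and 2.33, noah-2, for an apical matrix protein, by 1.38 and 1.33, and the cuticlin gene cut-1 by 1.42 and 1.69. Of 11 tested regulators of collagen genes, 3 were higher and 0 lower in nip2nip3, and 3 were higher and 2 lower in nip3_qe17. Those called higher were sma-2 and sma-3, for the Smad proteins of the body size pathway, and the period homologue lin-42. The genes sma-2 and sma-3 rose by 4.90 and 1.72 in nip2nip3 and by 1.22 and 1.55 in nip3_qe17. For lin-42 the rises were 0.99 and 0.98. The 2 called lower in nip3_qe17 were elt-1 and sma-9, with log2 fold changes of -1.09 and -0.49. In the direct comparison sma-2 was higher in nip2nip3 by 3.68 and nas-36 by 0.89, and no other gene of the 3 lists was called, beside 2.72% of all genes called higher and 1.47% lower. With microRNA scaling the counts in nip2nip3 were 1 higher and 6 lower for processing, 1 and 6 for molting and 3 and 5 for regulators, and in nip3_qe17 they were 1 and 6, 1 and 6, and 3 and 3; let-268 was no longer called. Of all genes tested, microRNA scaling called 9060 in nip2nip3 and 8630 in nip3_qe17 in either direction. The 1 tested basement membrane collagen gene, cle-1, and the 1 tested cuticle collagen with another name, bli-6, were not called in either mutant.

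In embryos, the input libraries of wt held 0.0772% and 0.0913% of their counts over collagen genes, and those of nipnip2 0.118% and 0.101%. The nipnip2 libraries lay above both wt libraries, and the exact two-sided permutation p was 0.333, the smallest that 2 against 2 libraries allow. Of the 173 genes, 35 were at 0 in all 4 inputs and 24 had enough counts for a test (13.9%, against 18.2% of all genes). The wt inputs and the wt adults had 8 of their 10 highest collagen genes in common, namely col-71, col-45, col-111, col-157, col-47, col-60, col-38 and col-154. In CPM per kilobase of gene span, the wt inputs were led by col-71 at 125, col-45 at 79.3, col-157 at 71.4 and col-60 at 42.7. Adult and embryo tables were counted separately, so these levels stand side by side with no test.

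Between nipnip2 and wt inputs, 2 of the 24 tested collagen genes were called lower and 0 higher, while 5.07% and 1.28% of all 8505 genes tested were called. At an unadjusted p under 0.05 there were 7 collagen genes, against 18.5% of all genes. The median log2 fold change was -0.38 over the collagen genes and 0.00 over all genes tested. The nipnip2 libraries lay wholly above wt for 4 collagen genes and wholly below for 9, against 22.5% and 24.6% of all genes. The split turned with the scaling: library totals, with the median of all genes at 0.58, gave 3 collagen genes higher and 1 lower, and microRNA counts, with that median at 1.35, gave 11 higher and 0 lower. Of all genes tested, 1764 and 5923 were called in either direction under these scalings, so calls were common in the table.

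The called genes were col-87 and col-45. For col-87 (II:14089851-14094690) there were 12 and 12 counts in wt against 2 and 1 in nipnip2, a ratio of shares of 8.40 with a 95% counting interval of 2.55 to 43.6 (edgeR adjusted p = 0.0169). For col-45 (I:115687-117498) the levels were 160 and 128 CPM in wt against 87.5 and 57.9 CPM in nipnip2. Its log2 fold change was -0.96 ± 0.24 (SE), with an adjusted p of 0.0467 and no overlap. Adults of wt, nip2nip3 and nip3_qe17 had 114 ± 5.79 (SD, n = 2), 97.7 ± 2.18 (SD, n = 3) and 98.7 ± 25.2 CPM (SD, n = 3) of col-45, and neither adult mutant was called. The lower level of col-45 in nipnip2 inputs turned to a log2 fold change of 0.45 with microRNA scaling and lost its call in 7 of the 11 other settings, that one included. The call of col-87 was lost in 5 of 9. Without wt input 1, or without nipnip2 input 2, no collagen gene was called lower.

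Of the genes with large rises in the adult mutants, col-38, col-111 and dpy-17 were tested in the inputs and not called. Another mutant, another stage and fewer counts apply there. Too few counts for a test were held by dpy-9 (1, 2, 1 and 0), col-103 (3, 2, 3 and 2) and col-158 (0, 0, 2 and 0). These counts are in the order of the wt and nipnip2 input libraries. For col-38 the levels were 25.1 and 31.4 CPM in wt and 59.5 and 43.5 CPM in nipnip2, above wt in both libraries, with an adjusted p of 0.0799. For col-111 they were 46.6 and 109 CPM in wt, and 87.5 and 38.9 CPM in nipnip2, so that the groups overlapped. For dpy-17 there were 11 and 13 counts in wt against 13 and 6 in nipnip2. The other body shape genes tested were dpy-10, at 11, 10, 15 and 5 counts, dpy-14, at 1, 15, 13 and 7, and sqt-3, at 13, 19, 18 and 4, each in the order of the wt and nipnip2 libraries. None of them was called. The genes dpy-5, dpy-8, sqt-1 and bli-1 were at 0 in all inputs. For a gene at 0, a count of 3 sets the limit, which was 0.000136% to 0.000261% of the counts of an input library.

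**Figure D5:**
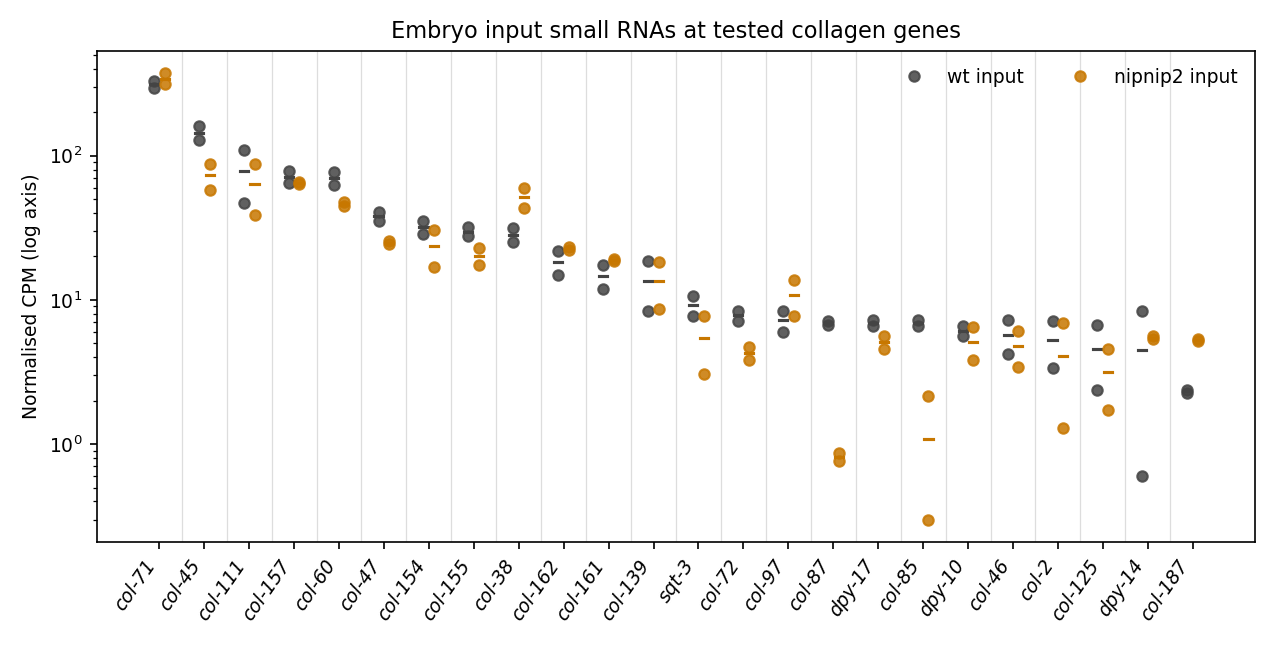
Small RNA level (CPM, log axis) of collagen genes in wt and nipnip2 embryo input libraries, with a point for each library and a bar at each group mean; a library at 0 is drawn at the lower edge. For col-45 the wt libraries lie at 160 and 128 CPM and the nipnip2 libraries at 87.5 and 57.9 CPM.

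Few counts of the NRDE-3 immunoprecipitates lay over collagen genes, which held 0.00104% and 0.00101% of counts in wt and 0.00311% and 0.00287% in nipnip2. The input share was 82.7 times the IP share in wt, from 3602 and 107 counts (95% counting interval 68.2 to 101), and 37.1 times in nipnip2, from 3313 and 193 counts (32.1 to 43.1). Most genes had a smaller share in IP than in input: scaled by library totals, the median log2 difference over all 9248 genes tested was -5.45 in wt and -4.08 in nipnip2, beside -6.52 and -5.24 over 28 tested collagen genes, and 8998 and 8833 of all genes were called in either direction. A few genes filled the IP libraries, the 10 highest of all genes taking 42.4% to 47.5% of counts, against 19.0% to 28.8% in inputs. Of the 173 collagen genes, 117 were at 0 in all 4 IP libraries. The highest was col-71, with 15 and 17 counts in wt and 35 and 39 in nipnip2, followed by col-157, with 0, 8, 6 and 7, and col-45, with 3, 2, 12 and 1.

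When IP and input libraries were fitted together with TMM scaling, 28 collagen genes were tested, and in each genotype 8 were called lower in IP and 0 higher. Fitted apart, 24 collagen genes had enough counts in inputs and 1, col-71, in IP libraries, beside 8505 and 2619 of all genes. The joint fit could therefore keep a gene for its input counts alone, which favours lower values in IP. The direction of these calls and medians was thus partly set by the filter. Of all 9248 genes tested, 12.8% were called lower and 11.7% higher in wt, and 14.7% and 15.8% in nipnip2. The genes called lower in wt were col-71, col-45, col-60, col-38, col-111, col-47, col-162 and col-155. In nipnip2 they were the same genes with col-157 in the place of col-155. For col-71 the log2 difference was -1.30 ± 0.32 (SE; adjusted p = 0.00189) in wt and -1.31 ± 0.28 (SE; adjusted p = 0.000353) in nipnip2. For col-38 there were 42 and 56 counts in the wt inputs and 0 in both wt IP libraries, and 138 and 57 in the nipnip2 inputs against 2 and 1 in the IP libraries. For col-60 there were 104 and 137 against 1 and 3 counts in wt, and 104 and 62 against 1 and 2 in nipnip2. The median log2 difference was -2.50 over the 28 collagen genes and -0.59 over all genes in wt, and -1.62 and -0.27 in nipnip2. Scaled by library totals, all 28 collagen genes were called lower in each genotype. Without wt IP library 2 there were 4 lower in wt, and 5 without wt IP library 1. Without nipnip2 IP library 2 there were 3 lower in nipnip2.

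The body shape genes dpy-10, dpy-14, dpy-17 and sqt-3 held 0 to 3 counts in each IP library, and none was called. The test of whether the IP difference itself differed between nipnip2 and wt called 0 of the 28 collagen genes in either direction, with 1 at an unadjusted p under 0.05 (10.3% of all genes), while it called 0.0541% of all genes higher and 0.822% lower. Between the IP libraries of nipnip2 and wt, col-71 was the only collagen gene tested. Its scaled levels were 6.29 and 5.76 CPM in wt and 5.07 and 7.03 CPM in nipnip2, and the log2 fold change was 0.00 ± 0.41 (SE), which was not called. Scaled by library totals or microRNA counts, or with a minimum mean of 20 counts, it was called higher, with log2 fold changes of 1.92, 2.06 and 1.24. The medians over all genes were then 2.10, 2.24 and 0.64, and 2174 and 2193 of the 2619 genes tested were called in either direction under library totals and microRNA scaling. With TMM scaling 10% of the 2619 genes were called higher and 23.4% lower.

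Close copies and overlapping genes limit single-gene readings. In the inputs, col-3 and col-117 had the same 6, 14, 7 and 5 counts, and col-7 and col-62 the same 2, 8, 4 and 8 counts, and in adults col-126 and col-127 had equal values in all libraries. How reads that fit several genes were counted is not given in the sources used here, so the values of such genes are uncertain.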

How the data were processed

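Per the labels, the small RNA libraries were 5′ end independent and made with Illumina TruSeq reagents. Per the submitters' processing notes, cutadapt, STAR, featureCounts, DESeq2 and the ce11 build were used, and versions, strand and multiple-mapping settings are not given in the sources used here. The authors deposited estimated counts per gene for adults, with fractions where reads were shared, and whole raw counts per gene for embryos. Repeat family tables were not used here.

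Adult values were rounded for testing. A transgene row, at most 0.0320% of counts, was left out. Symbols from a table of gene names matched 28876 of 31003 adult and 43720 of 46739 embryo identifiers, and positions came from RefSeq on the ce11 assembly. Tests were edgeR 4.0.16 quasi-likelihood F-tests (R 4.3.3). Most comparisons were also run on simulated counts with planted changes and the same fixed spread for every gene. That run does not test error rates in these data. Genes were chosen by filterByExpr, TMM factors scaled the libraries, and p-values were adjusted by Benjamini-Hochberg over all genes tested and called under 0.05. The 8 adult libraries were fitted together, the 4 inputs and the 4 IP libraries apart, and all 8 embryo libraries together for IP against input. CPM used TMM library sizes. Groups came from the labels, and embryo columns, named wt1, wt2, nip1nip1_1 and nip1nip2_2, were mapped to group only, with both mutant columns taken as nipnip2. Alternatives were DESeq2 1.42.0, other scalings and filters, a block by replicate number (adults) or shared column name (IP against input), and leaving out libraries. The text names body shape genes, up to 8 called genes per direction with no overlap between groups, the 10 highest genes of each table and up to 3 called genes per direction of each other list, and it names genes beside them. The members and lists were chosen with earlier results of these data known.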

Additional observations from a re-analysis of the deposited data

Results flagged for a closer look

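The direct comparison of the adult mutants set 4 collagen genes apart, each with more small RNA in nip2nip3 than in nip3_qe17 by edgeR's quasi-likelihood test with Benjamini-Hochberg adjustment. The log2 difference was 1.93 for dpy-9 (adjusted p = 0.00876), 1.86 for dpy-17 (adjusted p = 5.28e-05), 1.60 for col-103 (adjusted p = 0.00207) and 0.58 for col-60 (adjusted p = 0.0301). All 3 nip2nip3 libraries lay above all 3 nip3_qe17 libraries for each gene. Groups held 2 or 3 libraries, too few to test a single library as an outlier.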

How the results depend on the processing

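Across the settings run, 161 of the counts of called collagen genes stayed within 1.5 times the reported count and 37 did not; the causes were not tested. Of adults against wt, microRNA scaling gave 6 higher and 8 lower in nip2nip3 and 11 lower in nip3_qe17, and a minimum mean of 20 counts gave 6 higher of 16 tested in nip2nip3. Of all genes tested, 9060, 8630 and 6059 were called in either direction in these settings, in that order. Leaving out 1 library, which changes the genes tested (41 without wt replicate 3), gave 6 to 10 higher and 2 to 3 lower in nip2nip3, 4 to 5 higher and 2 to 6 lower in nip3_qe17, and 3 higher and 0 lower between the mutants. Where 1 library of a group was left, here and in embryos, it is assumed to vary like the other groups. Calls of dpy-17, col-111, col-38, col-158, col-186 and col-47 in both mutants, and of dpy-9 and col-103 in nip2nip3, held in all settings in which they were fitted. The sign turned for col-157 (-0.20) and col-71 (-0.066) in nip2nip3 and for col-157 (-0.31) and col-71 (-0.11) in nip3_qe17 with microRNA scaling, and for col-157 in nip3_qe17 with library totals (-0.068). Uncalled values near 0 turned with a library left out: col-60 in nip2nip3 ranged from -0.17 to 0.12, and between the mutants col-47 from -0.23 to 0.036 and col-71 from -0.040 to 0.20. In inputs, RLE scaling gave 1 lower, library totals 3 higher and 1 lower, microRNA scaling 11 higher and 0 lower with col-45 at 0.45, no filter 1 higher, a fit of all 8 embryo libraries 1 higher, and the minimum mean of 20 and DESeq2 0 lower each; leaving out a library gave 0 to 1 higher and 0 to 2 lower. Of all genes tested in inputs, 1764 were called in either direction with library totals and 5923 with microRNA scaling. Between IP libraries, library totals, microRNA scaling and the minimum mean of 20 gave 1 higher. For IP against input, library totals and microRNA scaling gave 28 lower in each genotype, the minimum mean of 20 gave 3 in wt and 4 in nipnip2, DESeq2 5 in wt, and no filter 1 higher in each; leaving out a library gave 4 to 10 lower in wt, and 3 to 8 lower and 0 to 1 higher in nipnip2. Library totals gave 2 higher in the test of IP difference between genotypes, where 1645 of all genes tested were called in either direction. With the replicate number as a block the adult counts were 10 and 3, 4 and 6, and 4 and 0. For IP against input the block was the column name shared by an IP and an input library, and the counts were 0 and 8 in each genotype. The deviations of same-numbered libraries correlated at 0.220, -0.0630 and 0.208 between the adult mutants, at 0.358 and 0.260 between nip2nip3 and wt and at 0.0648 and 0.174 between nip3_qe17 and wt, not all over 0.1, so the numbers were not taken as pairs. No paired analysis was possible between nipnip2 and wt embryos because the columns carry no shared sample numbers. Counts were enough to test 24 of 173 genes in inputs and 1 in IP libraries.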
